A study of Homo sapiens with 4 samples.

Results

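The SLAM receptors and their adaptor were examined in Jurkat cells, a human leukaemia line of T-cell acute lymphoblastic type that is in wide laboratory use, after exposure to GNE987. The 8 genes are the receptors CD48, SLAMF1, LY9, CD244, CD84, SLAMF6 and SLAMF7 and the adaptor SH2D1A, taken by name from a table of 26733 genes. They were chosen by the biology of the family with their counts in the treated and untreated libraries already known, so their change with GNE987 is given as a description that supports nothing, with no p-value of a member. Poly(A) RNA was sequenced from 2 libraries of cells treated with GNE987 (labelled 25 nmol, with no volume) and from 2 libraries of untreated cells, at 24 h. GNE987 is a chimeric degrader that brings BET bromodomain proteins, readers of acetylated histones, to the VHL ubiquitin ligase, and the labels name no vehicle for the untreated cells. Every library came from this 1 line, and nothing states that replicates were grown separately, so the replicate error may be technical.

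SLAM receptors are immunoglobulin-like surface proteins of blood cells that mostly bind a copy of themselves on the neighbouring cell. CD244 is the exception, with CD48 as its ligand. Most carry a cytoplasmic tyrosine motif that recruits SH2D1A, also called SAP, a small SH2 protein which brings in the kinase FYN, and without SAP the same motif can engage phosphatases. In T cells this system acts in the adhesion of T cells to B cells and in the development of natural killer T cells, and loss of SH2D1A causes X-linked lymphoproliferative disease.

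The receptor genes lie side by side on chromosome 1, within 378 kb from 160485030 to 160862855 (GRCh38, GENCODE release 29), in the order SLAMF6, CD84, SLAMF1, CD48, SLAMF7, LY9 and CD244. LY9 and SLAMF7 are on the plus strand and the others on the minus strand. SH2D1A lies on the X chromosome from 124227868 to 124373197 on the plus strand. Exons of an antisense gene, AL121985.1, cover 29.8% of the exonic bases of CD48, and that gene had 0 and 0 counts in the GNE987 libraries, against 4 and 0 in the untreated libraries. SH2D1A lies inside the span of STAG2 but shares 0 exonic bases with it, and it shares 2.91% of its exonic bases with TEX13D, which had at most 6 counts in a library. The RefSeq start of SH2D1A used for its promoter lies inside the GENCODE span. The library kit does not mark strand, so reads from overlapping exons cannot be told apart.

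Promoters are printed for the members that were well expressed in untreated cells and have an entry in the RefSeq table (GRCh38.p14), so that the regions of genes that moved together can be compared. Each runs 5′ to 3′ on the strand of the gene, from 250 bases before its start through the first 50 bases. The coordinates are chr1:160862838-160863137 (minus) for CD244, chr1:160711773-160712072 (minus) for CD48, chr1:160523206-160523505 (minus) for SLAMF6 and chrX:124346313-124346612 (plus) for SH2D1A. Capitals mark matches on either strand to GGAAG, the core letters of ETS factor motifs, or to AGATAA, those of GATA motifs.
CD244: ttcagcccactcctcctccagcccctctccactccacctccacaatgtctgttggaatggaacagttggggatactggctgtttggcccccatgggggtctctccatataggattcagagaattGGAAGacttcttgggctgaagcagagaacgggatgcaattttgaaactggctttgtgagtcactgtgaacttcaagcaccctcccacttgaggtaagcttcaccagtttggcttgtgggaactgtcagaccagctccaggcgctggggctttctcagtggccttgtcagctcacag
CD48: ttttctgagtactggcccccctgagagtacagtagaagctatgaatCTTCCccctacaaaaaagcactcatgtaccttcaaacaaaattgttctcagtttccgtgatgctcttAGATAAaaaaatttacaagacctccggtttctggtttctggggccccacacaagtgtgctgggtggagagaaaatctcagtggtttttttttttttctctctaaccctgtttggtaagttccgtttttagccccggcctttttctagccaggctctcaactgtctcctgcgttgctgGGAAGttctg
SLAMF6: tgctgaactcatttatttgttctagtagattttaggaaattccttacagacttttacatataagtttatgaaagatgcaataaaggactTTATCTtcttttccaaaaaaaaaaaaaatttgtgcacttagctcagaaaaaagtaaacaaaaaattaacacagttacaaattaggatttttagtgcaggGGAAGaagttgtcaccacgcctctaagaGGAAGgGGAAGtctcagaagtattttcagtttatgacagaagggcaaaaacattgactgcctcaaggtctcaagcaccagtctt
SH2D1A: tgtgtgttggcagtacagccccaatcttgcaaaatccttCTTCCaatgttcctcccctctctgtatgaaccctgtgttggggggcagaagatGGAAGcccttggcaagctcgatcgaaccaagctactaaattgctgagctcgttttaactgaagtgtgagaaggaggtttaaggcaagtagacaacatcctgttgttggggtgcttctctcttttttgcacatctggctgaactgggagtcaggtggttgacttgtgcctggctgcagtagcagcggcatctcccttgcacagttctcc

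GGAAG or its reverse complement CTTCC stood in 5 of 5 member promoters of the table (SLAMF1 is the fifth), as it did in 71.9% of all 35116 promoters of the same length. SLAMF6 held 3 matches, at 62, 34 and 28 bases before its start, and CD244 held 1, at 126 bases before. AGATAA or TTATCT stood in 2 of 5, CD48 and SLAMF6, against 10.3% of all promoters. The general E-box CANNTG, its own reverse complement, was in 4 of 5 (68.7% of all promoters) and AACNG or CNGTT, letters of MYB motifs, in 4 of 5 (77.2%); some MYB matches overlapped an E-box. CAGCTG, a form of the E-box linked to TAL1 complexes and counted within CANNTG, was in 0 of 5 (17.9% of all) and TGTGGT or ACCACA, of RUNX motifs, in 0 of 5 (13.1% of all). The GC content of the 4 printed promoters was 33.7% for SLAMF6, 44.7% for CD48, 50.3% for SH2D1A and 53.3% for CD244, beside a median of 58.7% over all promoters. A match says only that the letters are present in this window.

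Total counts were 17024157 and 16041022 in the GNE987 libraries and 18938465 and 18441248 in the untreated libraries. CPM below are counts scaled to library size with TMM factors. For a gene without reads in both GNE987 libraries the floor is 3 counts over that group, or 0.103 CPM. The GNE987 pair correlated at r = 0.993 over log2 CPM of all genes tested and the untreated pair at 0.977. Untreated replicate 2 stood apart from replicate 1, so values without it are given. For the label of the line, 8 of 8 T-cell markers were detected in every library, with a summed level of 1394 and 1521 CPM in the GNE987 libraries and 1722 and 1750 CPM in the untreated ones. The sum hid unequal members: CD3E was at 717 and 823 CPM with GNE987, against 507 and 639 CPM untreated, and CD28 at 19.4 and 16.5 CPM, against 129 and 109 CPM. Of 6 myeloid markers 6 had reads in every library, though untreated replicate 1 held only 1 to 3 counts of each. Their sum was 158 and 164 CPM with GNE987, against 0.584 CPM in the first untreated library and 32.7 CPM in the second. The 5 B-cell markers with a row summed to 97.8 and 107 CPM with GNE987 and to 41.6 and 51.6 CPM without, most of it CD79A. CD22 was at 0 in 1 library of each group. The 5 NK-cell markers with a row summed to 5.71 and 4.57 CPM with GNE987 and 19.8 and 17.4 CPM without, and PRF1 was most of the untreated level. GNLY went the other way, at 1.77 and 2.39 CPM with GNE987 and 0.404 and 0.346 CPM untreated. NCR1 was at 0 in 3 libraries, and KLRD1 at 0 in both untreated ones. Myeloid, B and NK cells also use SLAM receptors, and the part of these genes in the values below was not tested.

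In untreated Jurkat cells SH2D1A and 4 receptors, CD244, CD48, SLAMF6 and CD84, made up nearly all SLAM transcripts. With GNE987 each of these 5 messages was lower, the receptors to between 1.66% and 11.6% of their untreated mean and SH2D1A to 25.8%. LY9 was low to begin with, and SLAMF1 and SLAMF7 were at the edge of detection in every library. In bulk RNA, fewer cells with a transcript and less of it per cell cannot be told apart. GNE987 acts on proteins, and no protein was measured here.

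**Figure D1:**
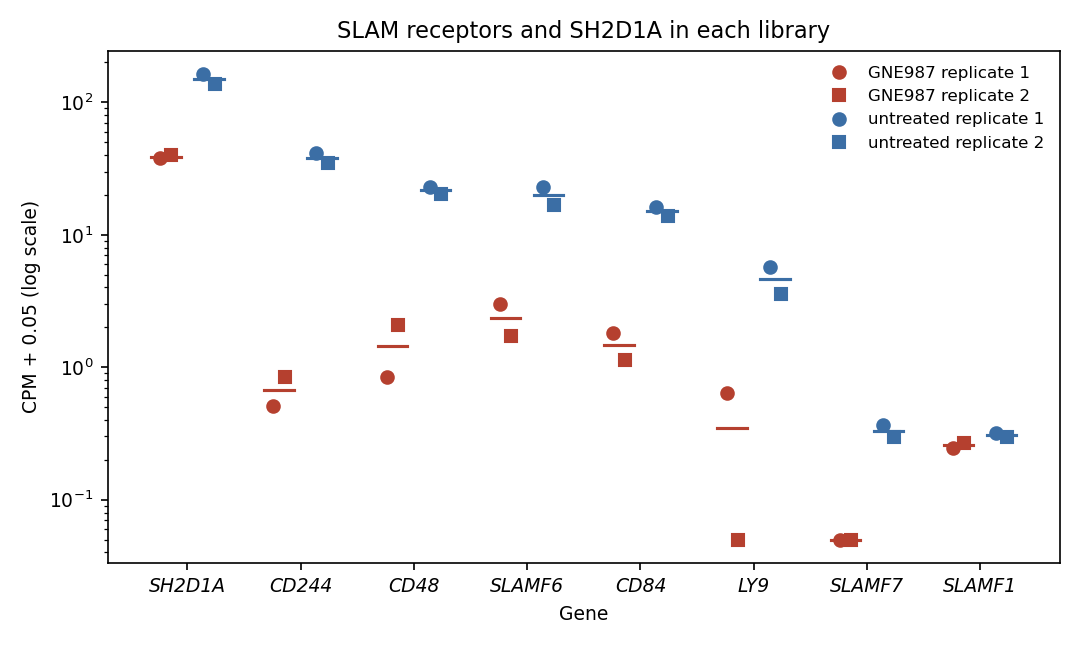
Level of each gene (x axis) in each library as CPM plus 0.05 on a log scale (y axis); red is GNE987 and blue untreated, circles are replicate 1, squares replicate 2 and short lines group means (n = 2). The GNE987 mean lies below the untreated mean by 60.2-fold for CD244 and by 3.87-fold for SH2D1A, while SLAMF1 rests on 3 to 6 counts a library.

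CD244, a receptor also known as 2B4 that is best known from NK and cytotoxic T cells, had 7 and 11 counts in the GNE987 libraries, against 914 and 701 in the untreated ones. In CPM these were 0.460 and 0.797 with GNE987 and 41.0 and 34.6 untreated. The groups were far apart, and the treated level rested on these few counts. Its log2 fold change was -5.91 ± 0.27 (SE), and -5.98 without untreated replicate 2. In order of fitted change CD244 stood at place 61 from the bottom among 15910 genes tested, and the next member, CD48, at place 309.

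CD48, the GPI-anchored ligand of CD244, had 12 and 28 counts with GNE987 and 510 and 410 in untreated cells, or 0.788 and 2.03 CPM, against 22.9 and 20.2 CPM. As a ratio, the GNE987 libraries were less alike than the untreated pair, and both were well below it. The log2 fold change was -3.95 ± 0.40, and it depended on the GNE987 library used: -3.41 without GNE987 replicate 1 and -4.76 without GNE987 replicate 2. Without untreated replicate 2 it was -3.99. The messages of ligand and receptor of the CD244 and CD48 pair were thus both lower in the same libraries.

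SLAMF6, a self-binding receptor also called Ly108 or NTB-A, had 45 and 23 counts with GNE987, against 512 and 340 in untreated cells, which is 2.95 and 1.67 CPM, against 23.0 and 16.8 CPM. Its untreated libraries were the least alike among the members other than LY9, with replicate 2 at 0.730 of replicate 1. The log2 fold change was -3.09 ± 0.33, and -3.24 without untreated replicate 2. CD84, a self-binding receptor found on T cells, B cells and platelets, had 27 and 15 counts with GNE987 and 359 and 281 in untreated cells. Its CPM were 1.77 and 1.09 with GNE987, against 16.1 and 13.9 untreated. For both genes GNE987 replicate 1 was the higher of the treated pair, the opposite of CD244 and CD48. The log2 fold change of CD84 was -3.38 ± 0.30, and -3.42 without untreated replicate 2.

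LY9, a self-binding receptor also called CD229, had 9 and 0 counts in the GNE987 libraries and 126 and 71 in the untreated ones, or 0.591 and 0 CPM, against 5.66 and 3.51 CPM. The groups did not overlap, but the treated level rested on 1 library. Over pooled counts the GNE987 level was 0.0669 of the untreated level (95% interval 0.0302 to 0.130, exact binomial, counting error only). The fitted log2 fold change of -3.87 ± 0.90 became -2.94 without GNE987 replicate 2 and -4.11 without untreated replicate 2. Without GNE987 replicate 1 the only treated library is the one with 0 counts, and the fitted value of -9.43 then depends on the prior count.

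SLAMF7, a self-binding receptor of NK and plasma cells that signals mainly through another adaptor, had 0 and 0 counts with GNE987, against 7 and 5 untreated. Set against the floor of 3 counts over both GNE987 libraries it was at least 2.73-fold lower, a bound that leaves out the counting error of the untreated libraries. With that error included, the pooled ratio of GNE987 to untreated could be up to 0.527 (upper end of the 95% exact binomial interval, counting error only). SLAMF1, the founding member of the family and a receptor of measles virus, had 3 and 3 counts with GNE987 and 6 and 5 in untreated cells. The pooled ratio of GNE987 to untreated was 0.799, with a 95% exact binomial interval of 0.243 to 2.36 that covers counting error only. A change of SLAMF1 was therefore not detectable at this depth. Neither gene passed the filter on low counts.

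SH2D1A had 574 and 552 counts with GNE987, against 3640 and 2778 in untreated cells. These are 37.7 and 40.0 CPM with GNE987 and 163 and 137 CPM untreated, or 38.8 ± 1.64 and 150.3 ± 18.6 CPM (SD, n = 2). The treated libraries agreed closely, and the adaptor had the highest FPKM of the 8 genes in all 4 libraries. Its log2 fold change was -1.95 ± 0.14, the smallest in size of the 6 members that passed the filter, and -2.02 without untreated replicate 2.

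Of the 8 members 6 passed the filter on low counts, and 2 of them, CD244 and LY9, only through the untreated libraries, where they were high. The fit across all genes (edgeR's quasi-likelihood test, threshold 0.05 on adjusted p) called 37.2% of 15910 genes lower, 34.4% higher and 71.6% in either direction, and the 6 members were among those called lower. With library size alone in place of TMM the calls over all genes were 4103 higher and 7164 lower, against 5467 and 5920. Since the members were picked with this contrast known, their calls are no test and nothing is read from that count. Their median log2 fold change was -3.63, beside -0.03 over all genes tested. In the authors' deposited table the log2 fold changes ran from -5.93 for CD244 to -1.95 for SH2D1A among the same 6 genes, with -3.95 for both CD48 and LY9. The authors' deposited table listed -4.47 for SLAMF7 and -0.32 for SLAMF1, both resting on the few counts above.

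Levels were compared between genes by the authors' FPKM, which divide by gene length. In untreated cells the order was SH2D1A at 48.5 ± 6.95 FPKM, CD244 at 13.1 ± 1.83, SLAMF6 at 7.17 ± 1.72, CD48 at 6.51 ± 0.695, CD84 at 1.60 ± 0.201, LY9 at 0.498 ± 0.175, SLAMF1 at 0.0597 ± 0.00487 and SLAMF7 at 0.0574 ± 0.0109 FPKM (SD, n = 2). SLAMF6 and CD48 changed places between the untreated libraries and were not separated beyond their spread, nor were SLAMF1 and SLAMF7. With GNE987 the order was SH2D1A at 12.5 ± 0.562 FPKM, SLAMF6 at 0.831 ± 0.325, CD48 at 0.425 ± 0.266, CD244 at 0.217 ± 0.0831, CD84 at 0.153 ± 0.0513, SLAMF1 at 0.0479 ± 0.00347, LY9 at 0.0319 ± 0.0452 and SLAMF7 at 0. Each pair of neighbours in that order from SLAMF6 down to CD84 overlapped between libraries, as did SLAMF1 and LY9, whereas SH2D1A stood clear of the rest. CD244 was thus the leading receptor in untreated cells, while the treated libraries did not agree on one: SLAMF6 led in GNE987 replicate 1 and CD48, barely ahead of SLAMF6, in GNE987 replicate 2.

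The receptors together summed to 1.75 and 1.66 FPKM in the GNE987 libraries and to 32.3 and 25.7 FPKM in the untreated ones. CD244 made up 9.04% and 16.7% of that sum with GNE987, against 44.6% and 45.9% untreated. SLAMF6 made up 60.4% and 36.3% with GNE987 and 26.0% and 23.2% untreated, and CD48 13.5% and 37.0% with GNE987 and 21.7% and 23.4% untreated. The receptor mix was alike in the untreated pair, and uneven in the treated pair, where the whole sum rested on 103 and 80 counts. The adaptor was at 6.92 and 7.80 times the receptor sum with GNE987, against 1.66 and 1.70 times in untreated cells, so the balance of the messages leaned further to SH2D1A in both treated libraries.

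**Figure D2:**
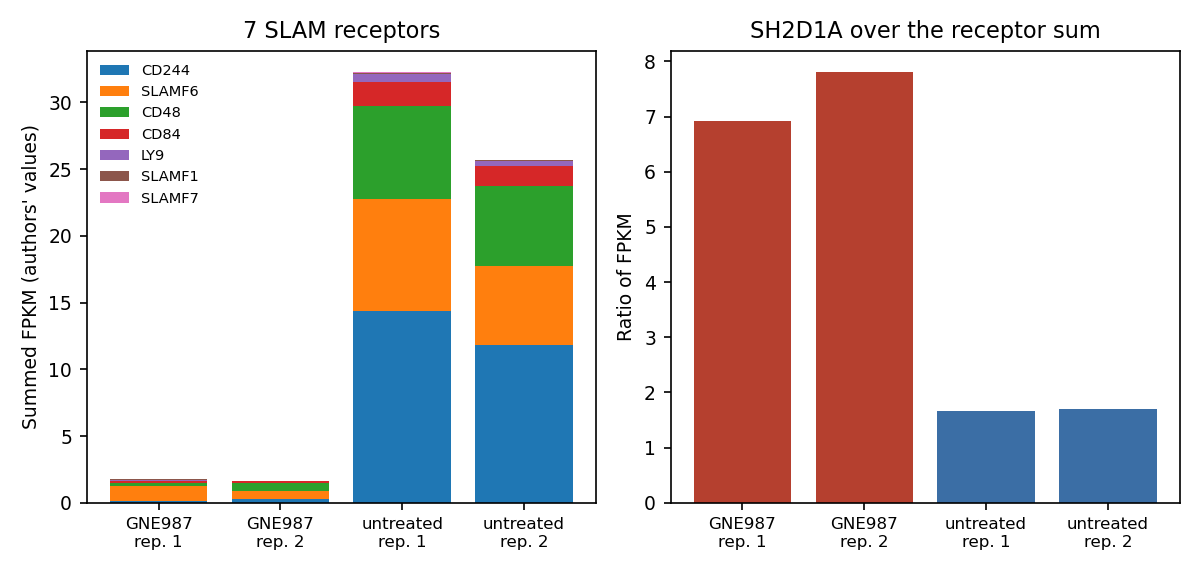
Left, FPKM of the 7 receptors stacked in each library (y axis, the authors' values); right, FPKM of SH2D1A divided by the receptor sum (y axis, a ratio), with red bars for GNE987 and blue bars for untreated libraries. The receptor sum was 1.75 and 1.66 FPKM with GNE987 and 32.3 and 25.7 FPKM untreated, and the ratio was 6.92 and 7.80 with GNE987 and 1.66 and 1.70 untreated.

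For the 6 fitted members untreated replicate 2 was closer to the GNE987 libraries than untreated replicate 1 was. Placed between untreated replicate 1 (0%) and the GNE987 mean (100%) in CPM, it lay at 12.3% for CD48, 15.3% for CD84, 15.9% for CD244, 21.1% for SH2D1A, 30.0% for SLAMF6 and 40.1% for LY9. These positions have no error, and the share of all genes placed so is not given, so nothing about the members is read from them. LY9 rested on 71 counts in this library. The same library also held 32.7 CPM of myeloid markers. The log2 fold changes without it, given with each gene, were larger in size for all 6 fitted members.

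By distance over the 4 libraries, in log2 CPM (with 0.5 added) centred on the mean of each gene, the nearest profiles were sought among 8888 genes that averaged 10 CPM or more in untreated cells. SH2D1A was nearest to RRP1 (distance 0.0167), KSR2 (0.0234) and SNUPN (0.0341). CD84 was nearest to TCF12 (0.0336), AVEN (0.0674) and PARL (0.0771), and SLAMF6 to ZCCHC10 (0.0842), GTF3C6 (0.0863) and DCP1A (0.129). CD244 was nearest to ITPRIPL1 (0.134), SASH3 (0.152) and MRPL39 (0.227), and the profiles near CD48 included SPR (0.231) and FOPNL (0.256). No member was among the 3 nearest of another. These genes were picked by their values, and a likeness over 4 libraries says nothing of shared control.

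The receptors act through other genes, and a list of 29 such genes was taken by role: other SLAM receptors and the adaptor EAT-2, the CD2 and CD58 pair, kinases, phosphatases with inhibitory adaptors, effectors, and genes of the NKT lineage. Of these 28 had a row, 27 were tested, 17 were lower and 7 higher with GNE987, which is 63.0% lower and 25.9% higher, beside 37.2% and 34.4% of all genes tested. The median log2 fold change was -1.10 (-1.15 without untreated replicate 2). It was the same with SLAMF8 at its bound. Of the 17 lower genes, SLAMF8, CD2 and ZBTB16 passed the filter only through the untreated libraries. Of the 7 higher genes, EGR2 passed only through the GNE987 libraries. Their calls are no support for either share. With the replicate number as a block, 4 were higher and 17 lower. With GNE987 replicate 1 or GNE987 replicate 2 left out, fewer genes were called in both directions. Adjusted p-values below are from the edgeR quasi-likelihood test, with the Benjamini-Hochberg adjustment made over every gene in the fit. The list was made with earlier results of these data known, so p-values of its genes are not independent of those results.

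**Figure D3:**
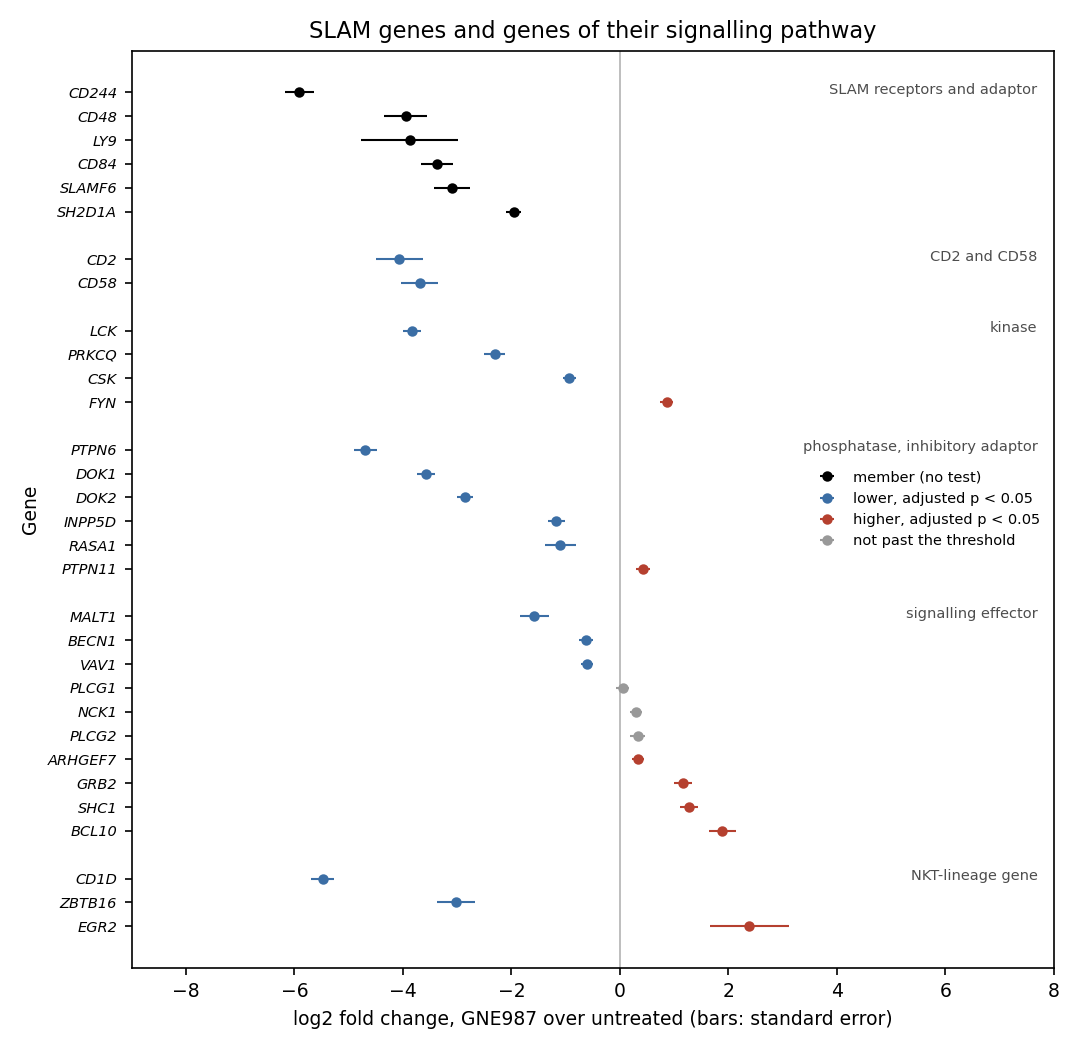
Log2 fold change of GNE987 over untreated (x axis, bars are standard errors, n = 2 libraries a group) for the 6 SLAM members that passed the filter and for the pathway genes described in the text, by role (y axis); SLAMF8, at 0 in both GNE987 libraries, is left out. LCK at -3.83 and PTPN6 at -4.69 lie left of 0, and FYN at 0.86 and BCL10 at 1.89 right of it. CD2 and ZBTB16 passed the filter only through the untreated libraries, and EGR2 only through the GNE987 libraries.

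SLAMF8, a receptor of myeloid cells, had 0 and 0 counts with GNE987, against 26 and 15 untreated, and was at least 9.33-fold lower against the floor of 3 counts over the group. With the counting error of the untreated libraries included, the ratio of GNE987 to untreated could be up to 0.138 (upper end of the 95% exact binomial interval, counting error only). SLAMF8 passed the filter only through the untreated libraries, so its place among the 17 lower genes is no support for a fall. SLAMF9 had 0 and 3 counts with GNE987 and 0 and 1 untreated, and SH2D1B, which encodes EAT-2, was not analysed here. CD2, an adhesion receptor of the same immunoglobulin branch, was at 0.263 and 0.580 CPM with GNE987, against 7.90 and 6.22 CPM untreated (log2 fold change -4.06 ± 0.44). With 4 and 8 counts in the GNE987 libraries, CD2 passed the filter only through the untreated libraries. Its place among the 17 lower genes is therefore no support for a fall. Its partner CD58 was at 1.77 and 0.870 CPM with GNE987 and at 18.3 and 16.3 CPM untreated (-3.69 ± 0.34, adjusted p = 0.000721). CD2 was at -4.72 without GNE987 replicate 2 and CD58 at -4.30 without GNE987 replicate 1. Both partners of this adhesion pair were lower in the GNE987 libraries, but only CD58 passed the filter through both groups.

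The kinases of SLAM signalling split. FYN, the kinase that SH2D1A brings to the receptors, rose to 97.5 and 95.0 CPM with GNE987, against 50.1 and 55.9 CPM untreated (log2 fold change 0.86 ± 0.12, adjusted p = 0.00232). LCK, the other main SRC-family kinase of T cells, fell to 60.1 and 62.1 CPM, against 950.6 and 783 CPM untreated (-3.83 ± 0.17, adjusted p = 0.000292). PRKCQ, a protein kinase C that SLAM signals reach through FYN, fell by 2.30 ± 0.19 on the log2 scale (adjusted p = 0.000544). CSK, which restrains SRC-family kinases, fell by 0.93 ± 0.12 (adjusted p = 0.00207).

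Among phosphatases and inhibitory adaptors 5 of 6 fell, which is 83.3%, beside 37.2% of all genes tested. PTPN6, the phosphatase SHP-1, was at 4.60 and 5.80 CPM with GNE987 and at 151 and 118 CPM untreated (-4.69 ± 0.21, adjusted p = 0.000292). DOK1 and DOK2, adaptors that dampen RAS signalling, were at -3.57 ± 0.17 (adjusted p = 0.000292) and -2.85 ± 0.14 (adjusted p = 0.000295). INPP5D, the lipid phosphatase SHIP-1, was at -1.17 ± 0.16 and the RAS inhibitor RASA1 at -1.10 ± 0.29, with adjusted p-values of 0.00258 and 0.0177. PTPN11, the phosphatase SHP-2, was the exception, at 159 and 144 CPM with GNE987, against 108 and 118 CPM untreated (0.42 ± 0.13, adjusted p = 0.0278). PTPN11 did not pass without GNE987 replicate 1 (adjusted p = 0.223), without GNE987 replicate 2 (0.124), with library size alone (0.749), with no filter (0.151) or with the replicate block (0.0624), and RASA1 did not pass without GNE987 replicate 2 (0.101).

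Of 11 effectors 4 were lower, 4 higher and 3 not past the threshold. This is 36.4% in each direction, near the 37.2% lower and 34.4% higher of all genes tested, so nothing is read from the count. BCL10, which acts with MALT1 in activating NF-kappaB, rose to 70.3 and 72.4 CPM with GNE987, against 14.6 and 23.9 CPM untreated (1.89 ± 0.24, adjusted p = 0.00200). MALT1 fell by 1.58 ± 0.27 (adjusted p = 0.00462). The adaptors SHC1 and GRB2 rose by 1.28 ± 0.16 and 1.17 ± 0.17 (adjusted p = 0.00194 and 0.00264). ARHGEF7, an exchange factor for RAC and CDC42, was at 0.34 ± 0.12 (adjusted p = 0.0448) and at -0.03 with library size alone. It did not pass there (0.837), without GNE987 replicate 1 (0.237), without GNE987 replicate 2 (0.200), with no filter (0.287) or with the replicate block (0.0846). VAV1, also an exchange factor, and BECN1, an autophagy protein that binds SLAMF1, were at -0.61 ± 0.11 and -0.63 ± 0.13 (adjusted p = 0.00618 and 0.00770). Neither passed without GNE987 replicate 1 (0.0888 and 0.0846) or GNE987 replicate 2 (0.0870 and 0.0766). NCK1 was at 0.30, PLCG2 at 0.33 and PLCG1 at 0.05, with adjusted p-values of 0.0586, 0.0718 and 0.703, and all 3 were below 0 with library size alone. NCK1 passed as higher with RLE size factors (0.0257), upper-quartile factors (0.0122), the filter of 10 CPM (0.0110), DESeq2 (0.0401), and without untreated replicate 1 (0.0324) or 2 (0.00863). PLCG2 passed with RLE size factors (0.0346), upper-quartile factors (0.0164), the filter of 10 CPM (0.0168), and without untreated replicate 1 (0.0112) or 2 (0.0201).

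Of the 3 genes of the natural killer T lineage, whose development needs SLAMF1, SLAMF6 and SH2D1A in mice, 2 were called lower. This is 66.7%, beside 37.2% of all genes tested. Nothing is read from this share, since ZBTB16 and EGR2 passed the filter only through the group where each was high. CD1D, the molecule that selects these cells, was at 0.919 and 0.870 CPM with GNE987 and at 44.2 and 36.3 CPM untreated (-5.48 ± 0.21, adjusted p = 0.000292). ZBTB16, the transcription factor PLZF that marks them, was at 0.591 and 0.652 CPM with GNE987 and at 5.48 and 4.69 CPM untreated (-3.02 ± 0.34). With 9 counts in each GNE987 library, ZBTB16 passed the filter only through the untreated libraries. Its call is therefore no support for a fall. EGR2, which acts upstream of ZBTB16 in mice, had 26 and 22 counts with GNE987, against 2 and 11 untreated (2.39 ± 0.73). On its untreated libraries alone EGR2 would not have passed the filter, so it passed only through the GNE987 libraries, where it was high. Its place among the higher genes is therefore no support for a rise. The value of EGR2 was 4.15 without untreated replicate 2 and 1.59 without untreated replicate 1. It did not pass with the replicate block or without either GNE987 library.

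Position in the genome was not used to choose the members, so the genes around them were tested. Within 500 kb of a member 58 other genes had a row and 33 were tested, of which 19 were lower and 3 higher with GNE987. This is 57.6% lower and 9.09% higher, beside 37.2% and 34.4% of all genes tested, and the median was -0.77 (-0.65 without untreated replicate 2). Of the 19 lower neighbours, TOMM40L passed the filter only through the untreated libraries. Within the receptor cluster itself the other 2 genes with a row are antisense genes, AL138930.1 and AL121985.1, with at most 4 counts in a library. The change therefore could not be followed in the gaps between receptors. Around the cluster on chromosome 1, 17 of 29 tested genes fell and 3 rose, or 58.6% and 10.3%. Those that rose, named after their values were seen, were TSTD1 (1.68 ± 0.29, adjusted p = 0.00484), PEA15 (1.06 ± 0.15, adjusted p = 0.00274) and KCNJ10 (1.18 ± 0.36, adjusted p = 0.0301). KCNJ10 did not pass without GNE987 replicate 1 (adjusted p = 0.157), without GNE987 replicate 2 (0.120), with library size alone (0.114), with no filter (0.0747), with the replicate block (0.0916) or in DESeq2 (0.0808).

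The cluster's nearest tested neighbours had smaller log2 fold changes than the fitted receptors. On the SLAMF6 side the nearest tested gene was VANGL2, a planar polarity protein 56.4 kb away, at 4.20 and 4.06 CPM with GNE987 and 8.26 and 7.65 CPM untreated (-0.94 ± 0.22, adjusted p = 0.0128). VANGL2 did not pass without GNE987 replicate 1 (0.0677) or GNE987 replicate 2 (0.0749). On the CD244 side it was the pseudogene AL354714.2, 32.1 kb away, at -0.83 ± 0.50 (adjusted p = 0.181). With 8 and 9 counts with GNE987, against 29 and 16 untreated, AL354714.2 passed the filter only through the untreated libraries. At so few counts it says little about how far the change extends. The difference between these genes and the receptors was not tested. Farther out on the CD244 side were the 4 neighbours with the smallest p. TOMM40L, a relative of a mitochondrial import channel 363 kb away, was at 0.131 and 0.362 CPM with GNE987, against 35.5 and 29.2 CPM untreated (-7.02 ± 0.34, and -7.87 without GNE987 replicate 2). With 2 and 5 counts in the GNE987 libraries, TOMM40L passed the filter only through the untreated libraries. Its place among the 19 lower neighbours is therefore no support for a fall. USP21, a deubiquitinase, was at -4.15 ± 0.20 (adjusted p = 0.000292). B4GALT3, a galactosyltransferase, was at -4.32 ± 0.23 and PFDN2, a prefoldin subunit, at -4.09 ± 0.20 (adjusted p = 0.000295 for both). They lie 297, 308 and 238 kb from CD244.

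Near SH2D1A on the X chromosome 2 of 4 tested genes fell. STAG2, a cohesin subunit whose span contains SH2D1A, was at 20.7 and 19.6 CPM with GNE987 and at 71.2 and 58.1 CPM untreated, a log2 fold change of -1.68 ± 0.15 (adjusted p = 0.000629). The value of SH2D1A was -1.95 ± 0.14, and the exons of these genes do not overlap. TENM1, a neuronal adhesion protein 2.71 kb from SH2D1A, was at -0.29 ± 0.41 (adjusted p = 0.551), with 17 and 26 counts with GNE987 and 45 and 33 untreated. XIAP, an inhibitor of caspases on the other side, was at 17.1 and 14.5 CPM with GNE987 and at 17.4 and 14.7 CPM untreated (-0.02 ± 0.17, adjusted p = 0.916). THOC2, an mRNA export factor 495 kb away, was the other gene that fell (-1.21 ± 0.15, adjusted p = 0.00166); it was named after its values were seen.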

How the data were processed

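Poly(A) RNA of Jurkat cells was extracted with TRIzol and made into libraries with the TruSeq RNA kit, per the labels' protocols, 2 treated with GNE987 and 2 untreated. HISAT2 2.2.0 and hg38 are listed in the submitters' processing notes. Not given in the sources used here are the counting tool, its annotation and strand setting, and the authors' test. The authors deposited raw counts per gene, judged so from whole values and, per the file headers, from the column names. They also deposited a normalized signal, made by dividing counts by a library's size factor (0.793 to 1.27; 100% of counts given back within 0.01). FPKM values were deposited by the authors and divide counts by depth and gene length, per the file headers. The log2 fold change and p-value columns are the authors' own comparison, as deposited.

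Genes passing filterByExpr of edgeR 4.0.16 (minimum count 10, minimum total 15; 15910 of 26733) were scaled by TMM, and GNE987 was tested against untreated with the quasi-likelihood F test in R 4.3.3 (residual degrees of freedom 2). The Benjamini-Hochberg adjustment covered every gene in the fit, at a threshold of 0.05. An SE is the fold change divided by the square root of F. The fit was tested on simulated data with few changed genes and a dispersion of its own for each gene; there the share of false calls was above the nominal threshold, so adjusted p-values near 0.05 are to be read with caution. Members and lists were chosen with earlier results of these data known, and no p-value of a member is given. Every pathway gene could be named. Neighbours named were those inside the cluster, the nearest tested on each side of the cluster and of SH2D1A, and the 4 others with the smallest p; TSTD1, PEA15, KCNJ10 and THOC2 fall outside this rule. Alternatives were other scalings (RLE size factors, upper quartile, library size alone), other filters, DESeq2 1.42.0, robust estimation, a replicate block, and each library left out, where the lone sample is assumed to vary like the other group. All 26733 gene identifiers matched GENCODE release 29. Reads carry no molecular identifiers, so intervals and floors cover counting error only. Over genes with at least 20 counts in a pair, chi-square per degree of freedom was 4.97 in the GNE987 pair and 38 in the untreated pair. Libraries of a group thus differed by more than counting error, and the intervals may be too narrow. The planned comparison of protein sequences was not run, and some genes that the rules would name are not reported here.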

Additional observations from a re-analysis of the deposited data

How the results depend on the processing

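The log2 fold changes of the 6 fitted members were below 0 under all 12 alternatives that gave a value (11 for LY9, which a filter of 10 CPM removes). Their ranges were -6.34 to -5.56 for CD244, -4.76 to -3.41 for CD48, -3.78 to -3.08 for CD84, -3.57 to -2.75 for SLAMF6, -2.33 to -1.75 for SH2D1A and -9.43 to -2.94 for LY9. Scaling by library size alone shifted the median over all genes by -0.37, with 4103 higher and 7164 lower; 5 pathway genes were then higher and 17 lower, and ARHGEF7 was at -0.033. With 1 library left out, the number of higher genes was between 2062 and 6534 over all genes, 4 and 9 in the pathway list and 2 and 5 among the neighbours. The highest neighbour count came without untreated replicate 2, and the lowest counts without a GNE987 library, a fit whose spread comes from untreated cells only. Among these fits the numbers called lower were also smallest without a GNE987 library, over all genes, in the pathway list and among the neighbours. The labels do not say whether the replicate numbers pair the libraries. Across genes the replicate differences of the groups were uncorrelated (r = -0.00389), which cannot exclude pairing, as untreated replicate 2 stood apart. With the numbers as a replicate block 4 pathway genes were higher and 17 lower. Within 1 Mb of the members 22 genes were lower and 4 higher. Of the 22, TOMM40L, SLAMF8 and DUSP23 passed the filter only through the untreated libraries. For genes of under 10 counts a library, such as SLAMF1 and SLAMF7, depth limits what can be seen.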
